A study of Mus musculus with 8 samples.

Results

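Accessible regions around 9 genes of the Notch pathway and its T-lineage targets were followed in mouse pre-B cells during the first 2 h after nuclear entry of Ikaros. The genes were Notch1, Notch3, Hes1, Dtx1, Ptcra, Il2ra, Gata3, Tcf7 and Cd3e. ATAC-seq, in which a transposase inserts adapters into open DNA, had been performed in B3, a mouse pre-B cell line that carried the retroviral transgene Ikaros-ERt2 and was sorted for GFP. The ERt2 part is a hormone-binding domain that keeps Ikaros out of the nucleus until 4-hydroxytamoxifen (4-OHT) is added. Cells with no 4-OHT (0 h) and cells 30 min, 1 h and 2 h into a dose of 500 nM were assayed in 2 replicates per time, so that 4 times gave 8 libraries. All cells carried the transgene, and the 0 h cells had no treatment, so a response to 4-OHT itself cannot be told apart from one to Ikaros. The labels do not say whether replicates were separate cultures, so the tests measure the spread between these libraries, which may be technical.

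A region was a member when its summit lay in the body of 1 of the 9 genes (GENCODE, GRCm38) or within 20 kb of it. Peaks of the 8 lists that overlapped were first merged, which gave 174718 regions in all, of which 149 were members. Notch1 and Il2ra had 28 each, Tcf7 20, Hes1 and Dtx1 16 each, Notch3 and Ptcra 12 each, Cd3e 11 and Gata3 6. Of the 149, 58 were in all 8 lists, 62 in 2 to 7 lists and 29 in 1 list. Each peak is given by its fragments, counted at the summit, and by its percentile, which is the rank of its fold over background among all peaks of the same list. The background is not equal for all regions, so that the same number of fragments can have different percentiles. The lists held 85903 to 103897 peaks with a median of 11 to 14 fragments at the summit, so a weak peak near that number can be missed in 1 list by counting error alone. A missing peak therefore means that no peak was called, not that the region was closed.

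Notch receptors are cut when a ligand binds, and the freed intracellular part enters the nucleus and joins the DNA-binding protein RBPJ to activate target genes. Hes1, which encodes a repressor of the basic helix-loop-helix type, and Dtx1, which encodes the ubiquitin ligase Deltex, are classical targets, and Notch1 signals commit lymphoid progenitors to the T lineage. Ikaros is a zinc-finger factor that binds the core words GGAA and GGGA, and RBPJ binds TGGGAA, so the words of the 2 factors overlap. In T-cell precursors Ikaros is known to restrain Notch target genes. Markers placed the cells in the B lineage: 6 of 9 B-cell genes (Cd79a, Cd79b, Pax5, Ebf1, Igll1 and Blnk) had a peak within 1 kb of a start site in all 8 lists. Of 7 T-cell genes only Lat did, and Cd3e, Cd3d and Cd8a had none in any list. None of 5 myeloid and none of 3 erythroid genes had one in all 8 lists, and 4 and 2 of them had none at all.

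Sequences are shown for the start sites of Notch1 and Hes1, the receptor and the target at the head of the pathway. Others are of the regions that passed the main test below at 2 h. The Il2ra and Gata3 regions that moved most for their gene at 2 h are also shown, although some unprinted regions moved more. Those named by distance are the 200 bases around the summit on the plus strand. The Hes1 start sequence ends at the base before the start of transcription. The Notch1 start sequence is the 250 bases upstream of the start in RefSeq (GRCm38.p6), read along the gene. Distances are from the RefSeq start site (for Hes1 the GENCODE one) in the direction of transcription, and positions are on GRCm38. Capitals mark GGAA or GGGA on either strand.
Dtx1 +25.8 kb, chr5:120685725-120685924: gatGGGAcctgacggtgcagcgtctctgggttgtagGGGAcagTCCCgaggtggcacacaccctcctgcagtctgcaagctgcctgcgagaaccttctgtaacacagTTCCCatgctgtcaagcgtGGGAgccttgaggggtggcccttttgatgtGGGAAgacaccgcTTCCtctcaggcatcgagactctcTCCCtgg
Notch3 +2.8 kb, chr17:32163978-32164177: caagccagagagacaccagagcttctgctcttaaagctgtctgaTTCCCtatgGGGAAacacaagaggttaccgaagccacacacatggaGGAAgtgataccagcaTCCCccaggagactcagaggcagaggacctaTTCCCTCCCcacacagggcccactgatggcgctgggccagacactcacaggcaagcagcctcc
Dtx1 +4.9 kb, chr5:120706629-120706828: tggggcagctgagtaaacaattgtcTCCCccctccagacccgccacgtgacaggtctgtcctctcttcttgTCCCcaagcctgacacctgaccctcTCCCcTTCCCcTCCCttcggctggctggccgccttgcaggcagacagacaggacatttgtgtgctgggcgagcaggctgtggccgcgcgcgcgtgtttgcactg
Hes1 +1.6 kb, chr16:30066818-30067017: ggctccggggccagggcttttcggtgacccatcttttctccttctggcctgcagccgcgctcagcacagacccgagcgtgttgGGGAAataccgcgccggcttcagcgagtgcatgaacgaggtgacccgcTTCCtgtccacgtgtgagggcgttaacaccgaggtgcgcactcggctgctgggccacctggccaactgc
Il2ra +11.2 kb, chr2:11653922-11654121: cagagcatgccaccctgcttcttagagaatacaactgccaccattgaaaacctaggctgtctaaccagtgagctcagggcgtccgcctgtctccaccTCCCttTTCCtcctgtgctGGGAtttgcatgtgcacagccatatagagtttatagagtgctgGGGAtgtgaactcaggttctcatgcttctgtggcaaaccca
Gata3 +7.2 kb, chr2:9871300-9871499: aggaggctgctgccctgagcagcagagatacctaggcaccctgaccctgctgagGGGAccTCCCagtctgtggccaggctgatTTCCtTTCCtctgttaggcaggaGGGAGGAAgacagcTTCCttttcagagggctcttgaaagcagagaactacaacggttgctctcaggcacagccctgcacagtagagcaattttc
Hes1 start, chr16:30065207-30065339: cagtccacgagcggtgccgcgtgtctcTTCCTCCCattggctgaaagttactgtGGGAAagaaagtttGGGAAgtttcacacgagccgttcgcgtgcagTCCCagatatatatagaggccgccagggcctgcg
Notch1 start, chr2:26503823-26504072, minus strand: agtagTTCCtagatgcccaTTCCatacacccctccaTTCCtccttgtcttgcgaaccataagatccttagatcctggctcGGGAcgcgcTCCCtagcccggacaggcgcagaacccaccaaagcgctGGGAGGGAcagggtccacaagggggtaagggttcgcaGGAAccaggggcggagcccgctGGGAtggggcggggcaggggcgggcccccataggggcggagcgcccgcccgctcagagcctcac

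With GGGAA counted as both words, the 200-base windows held 10 core words in Dtx1 +25.8 kb, 9 in Notch3 +2.8 kb, 7 in Gata3 +7.2 kb, 6 in Dtx1 +4.9 kb, 4 in Il2ra +11.2 kb and 3 in Hes1 +1.6 kb. All 174718 regions had a mean of 4.13 ± 2.44 (SD) and the 149 members 4.48 ± 2.46. The RBPJ word TGGGAA, searched on both strands, was in 25 of 149 member windows (16.8%) and in 14.9% of all windows. Dtx1 +25.8 kb held 2 copies and the other 5 windows named by distance held 0. The Hes1 start sequence held 2 copies on the same strand, whose first bases lie at -80 and -66 from the start of transcription. The 250 bases upstream of the Notch1 start held 0, and 21.6% of 32851 RefSeq promoters of that length held at least 1. For the other words, the shares around these genes and elsewhere were not tested against each other. The word GGGAA was in 48.3% of member windows against 41.5% of all. The E-box words CAGCTG and CAGGTG were in 18.1% against 16.8% and 16.1% against 18%. The Runx word TGTGGT was in 25.5% against 25.9%. The GATA word AGATAA was in 5 of 149 member windows (3.36%) against 7.52% of all, a small count. A word is a description of the sequence and does not show that a factor was bound.

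To ask which regions changed, the 58 regions found in all 8 lists were placed, list by list, in 1 ranking with the other regions of that kind. The ranks were converted to normal scores and fitted with limma, and a region was called at an adjusted p under 0.01. A shift is the difference of mean scores, later time minus 0 h. The 3 comparisons share the 0 h libraries. At 2 h, 2 of 58 member regions were lower (3.45%, against 4.71% of 47875 regions) and 2 were higher (3.45%, against 2.28%). The lower ones were Dtx1 +25.8 kb and Notch3 +2.8 kb, and the higher ones were Hes1 +1.6 kb and Dtx1 +4.9 kb. At 1 h, 3 were lower (5.17%, against 2.51%), namely the same Dtx1 and Notch3 regions and the Hes1 start, and 0 were higher (against 1.1%). At an unadjusted p under 0.05, 7 were higher at 1 h, where 14.9% of all regions were. At 30 min limma called 0 lower and 0 higher, as it did among all regions (0.0%), and 16 of 58 had an unadjusted p under 0.05, where 19.4% of all regions did. Of these 16, 12 were lower and 4 higher, but the split over all regions was not counted, so no direction is read from it. The median shift of the 58 after 2 h was 0.06, as in all 47875 regions, with 27 shifts below 0 and 31 above. Without replicate 2 of 0 h limma called 0 member regions at any time, and without replicate 2 of 2 h it called 0 at 2 h. Over the 8 fits that each left out 1 library, Dtx1 +25.8 kb stayed called at 2 h in 6, Notch3 +2.8 kb in 4, Hes1 +1.6 kb in 2 and Dtx1 +4.9 kb in 0. Each share of called regions rests on at most 3 member regions, so it says nothing particular of the group. The changes were those of single regions.

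**Figure D1:**
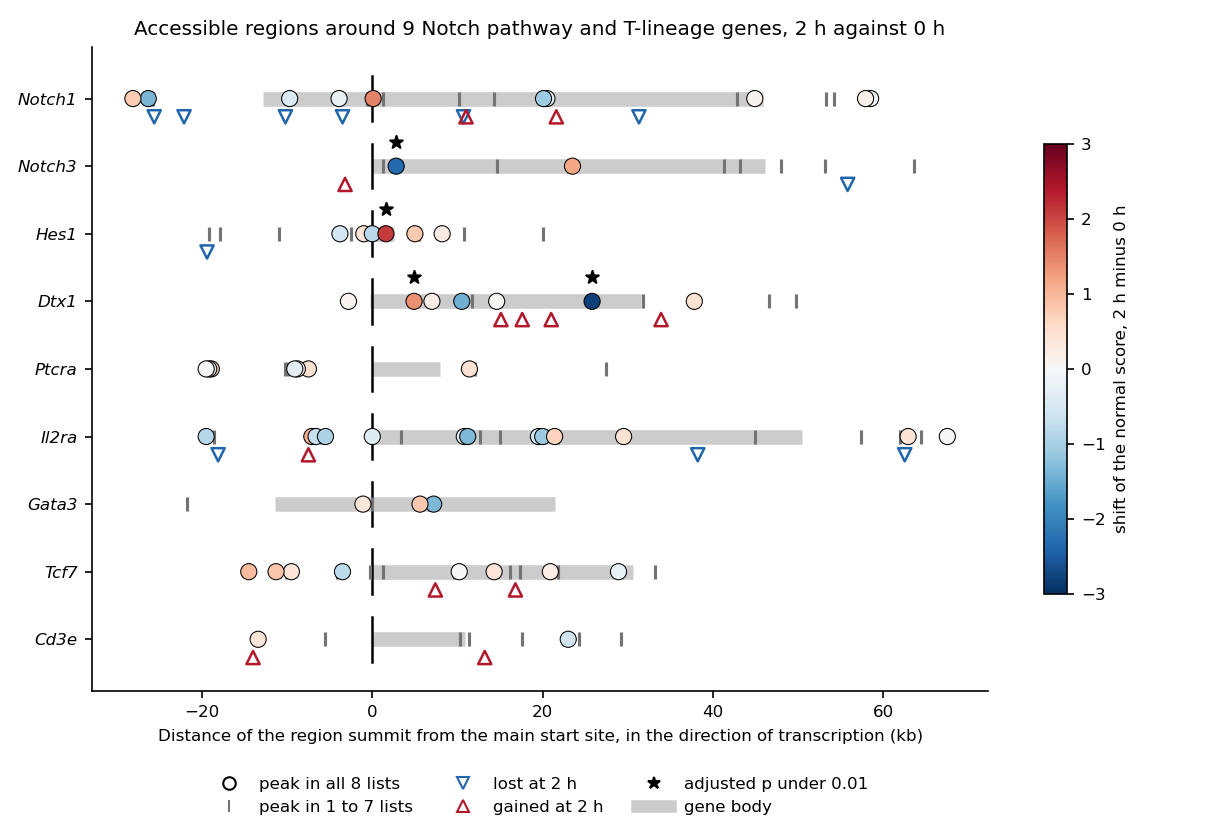
Member regions of each gene by distance from its main start site (kb, vertical tick), with the gene body in grey. Circles are the 58 regions present in all 8 lists, coloured by the shift at 2 h, stars mark the 4 called at 2 h, and open triangles below the line are regions lost or gained. The called regions lie at Notch3 +2.8 kb, Hes1 +1.6 kb, Dtx1 +4.9 kb and Dtx1 +25.8 kb.

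The calls depended on the scale. The second scale was the log2 of recovered fragments over the background of the library, with each library centred on its median. On it 8 of 58 were lower at 2 h (13.8%, against 9.37% of all regions) and 2 higher (3.45%, against 5.43%). The added 6 were Notch1 -26.3 kb, -9.7 kb and +20.1 kb, Il2ra -5.5 kb and +11.2 kb and Gata3 +7.2 kb. At 1 h 9 were lower (15.5%, against 6.63%) and 2 higher (3.45%, against 3.48%). At 30 min 2 were lower (3.45%, against 1.3%) and 0 higher (against 0.322%). The shares lower were thus above those of all regions at each time, a difference that was not tested. Before centring, the median region rose by 0.14 on the log2 scale from 0 h to 2 h.

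Regions absent from some lists were tested in a second fit over the 126504 regions that 2 or more lists held, with absent peaks at the lowest rank. Here 10 of 120 member regions were lower at 2 h (8.33%, against 6.27%) and 2 higher (1.67%, against 2.36%). At 1 h 9 were lower (7.5%, against 4.33%) and 1 higher (0.833%, against 1.33%). At 30 min 1 was lower (0.833%, against 0.549%) and 0 higher (against 0.0269%). Beside Dtx1 +25.8 kb and Notch3 +2.8 kb, the regions lower at 2 h in this fit lay around Notch1 (3 regions), Il2ra (2), Hes1, Ptcra and Tcf7, and the higher ones were Dtx1 +33.9 kb and Cd3e +29.2 kb. Of the lower ones, Notch1 -3.5 and -25.6 kb, Hes1 -19.4 kb and Il2ra -18.1 and +38.2 kb had a peak in the 0 h lists alone. They entered this fit only through the time where they were high, so a lower later value was fixed in advance. Absent peaks also share the lowest rank, which narrows the spread, so adjusted p values of regions with absent peaks are descriptive.

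Notch1 encodes the receptor that drives T-lineage commitment. Its start site lay in a region at chr2:26503655-26503949, which covers an untranslated exon of Notch1. This region had 20 and 9 fragments at 0 h, 42 and 28 after 30 min, 41 and 28 after 1 h, and 34 and 33 after 2 h. All 6 libraries with 4-OHT were above both 0 h libraries. Its percentile was 49.2 and 19.3 at 0 h and 80.5 and 82.2 after 2 h. The shift of 1.49 ± 0.32 (SE) after 2 h had an adjusted p of 0.0115, just outside the threshold, and the 0 h replicates differed widely.

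The opposite course was seen in an intron 10.7 kb into the gene (chr2:26492981-26493189). This region had 42 and 25 fragments at 0 h, 15 and 12 after 30 min, 10 and 6 after 1 h, and no peak at 2 h. Its percentile went from 92.8 and 85.2 to 56.9 and 56.9, then to 39.7 and 14.2. The counts of the times do not overlap, and in the fit over regions in at least 2 lists the shift at 2 h was -2.55 with an adjusted p of 0.00303. An intronic region of the long transcript at -10.2 kb (chr2:26513949-26514117) had 28 and 24 fragments at 0 h and 15 in 1 library at 30 min, and no peak in the other 5 lists. Its shift in that fit was -1.68 with an adjusted p of 0.0104. Both regions were named because they were lost at 2 h, and the lowest rank in both 2 h libraries enters these shifts.

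The strong Notch1 region at -3.9 kb had 35 and 36 fragments at 0 h and 36 and 31 after 2 h, and its shift was -0.23 ± 0.30 with an adjusted p of 0.636. The region at -26.3 kb, upstream of the gene, had 45 and 46 fragments at 0 h, 20 and 19 after 30 min, 24 and 18 after 1 h, and 17 and 16 after 2 h. Its shift at 2 h was -1.37 ± 0.30 with an adjusted p of 0.0117, just outside the threshold, and the fragment scale called it. In all, the number of the 28 Notch1 regions with a peak went from 21 and 17 at 0 h to 18 and 17 after 30 min, 15 and 16 after 1 h, and 14 and 13 after 2 h. Both 2 h libraries were thus below both 0 h libraries, although their lists were longer. Of the 28 regions, 7 were in 1 list only. Il2ra also went down, from 19 and 19 to 17 and 18. Dtx1 went up from 9 and 7 to 13 and 12, and Cd3e from 5 and 4 to 9 and 6. For the other genes the 0 h and 2 h counts overlapped. These counts were not tested.

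Notch3 encodes a second receptor of the family, which is itself a Notch target in thymocytes. An intron 2.8 kb into the gene (chr17:32163942-32164237) held one of the strongest peaks of the 0 h lists, at percentiles 99.7 and 99.1. It had 98 and 68 fragments at 0 h, 51 and 45 after 30 min, 24 and 17 after 1 h, and 21 and 18 after 2 h. The 0 h, 30 min and later libraries form 3 groups that do not overlap. Its shift was -2.30 ± 0.28 after 1 h (adjusted p 0.00245) and -2.33 ± 0.28 after 2 h (adjusted p 0.00134). On the log2 scale of fragments over background, it fell by 2.25 ± 0.20 after 2 h. A weaker neighbour at +2.4 kb had 36 and 22 fragments at 0 h, 9 and 10 after 1 h, and at 2 h 10 in 1 library and no peak in the other. A region over a coding exon at +23.5 kb had 11 and 7 fragments at 0 h and 20 and 23 after 2 h, with a shift of 1.16 ± 0.41 and an adjusted p of 0.0696. No Notch3 region lay within 1 kb of the start site in any list.

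Hes1 is a short gene with a region over its start that fell at 1 h and a region further into it that rose at 2 h. The start-site region (chr16:30065069-30065397), which holds both TGGGAA words printed above, had 38 and 33 fragments at 0 h, 29 and 22 after 30 min, 19 and 16 after 1 h, and 28 and 21 after 2 h. Its percentile averaged 46.6 ± 7.03 (SD, n = 2) at 0 h, 24.1 ± 6.35 after 30 min, 3.08 ± 3.06 after 1 h and 26.2 ± 13.2 after 2 h. The shift of -2.12 ± 0.30 passed the test at 1 h (adjusted p 0.00353). In the fit over regions in at least 2 lists it did not pass (shift -0.86, adjusted p 0.0273). At 2 h the shift was -0.83 ± 0.30 with an adjusted p of 0.0812. The step from 1 h to 2 h, which was tested after its values were seen, had an adjusted p of 0.752. In that contrast limma called 0 of 47875 regions (2829 at an unadjusted p under 0.05), so the partial return at 2 h was not beyond the spread.

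The next region (chr16:30066818-30067242), 1.6 kb downstream over coding exons, rose. It had 16 and 11 fragments at 0 h, 27 and 33 after 30 min, 34 and 37 after 1 h, and 38 and 34 after 2 h, and its percentile averaged 2.4 ± 2.82 at 0 h and 52.7 ± 0.819 after 2 h. The shift at 2 h was 2.1 ± 0.39 with an adjusted p of 0.00633, and at 1 h 1.97 ± 0.39 with an adjusted p of 0.0118. In the fit over regions in at least 2 lists, the 2 h shift was 0.66 and was not called (adjusted p 0.104). The region at -1.0 kb, upstream of the gene, had 32 and 30 fragments at 0 h and 34 and 44 after 2 h, and its shift of 0.41 ± 0.36 was within the spread (adjusted p 0.463).

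Dtx1 had the member regions with the largest fall at 2 h and a rise, both inside introns of the gene. The falling region lay at +25.8 kb (chr5:120685729-120686022). It had 56 and 38 fragments at 0 h, 18 and 20 after 30 min, 10 and 7 after 1 h, and 10 and 8 after 2 h. Its percentile averaged 94.6 ± 1.09 at 0 h, 73.3 ± 2.94 after 30 min, 27 ± 14.1 after 1 h and 28.9 ± 13.1 after 2 h. The shift was -2.98 ± 0.30 after 1 h (adjusted p 0.00236) and -2.81 ± 0.30 after 2 h (adjusted p 0.00106). Over background, fragments fell by 2.55 ± 0.23 on the log2 scale.

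The rising region lay at +4.9 kb (chr5:120706564-120706901) and had 10 and 7 fragments at 0 h, 20 and 14 after 30 min, 25 and 25 after 1 h, and 28 and 28 after 2 h. Its shift at 2 h was 1.38 ± 0.28 with an adjusted p of 0.00936. In the fit over regions in at least 2 lists, this region was not called (shift 0.59, adjusted p 0.0692). Nor was it called by limma with a replicate block (adjusted p 0.0143) or a mean trend (adjusted p 0.0306). A further 3 regions were named because both 2 h lists and neither 0 h list held them and their highest summit had over 20 fragments. Their absence at 0 h and their strength are thus the rule that picked them, not results. The one at +33.9 kb, beyond the end of Dtx1 in an intron of Rasal1, had 13 and 11 fragments at 30 min, 18 and 15 after 1 h, and 23 and 14 after 2 h, and was higher at 2 h in the fit over regions in at least 2 lists (shift 1.43, adjusted p 0.00474). The regions at +21 kb and +17.6 kb had 12 and 26 and 23 and 15 fragments at 2 h, and their adjusted p values in that fit were 0.0182 and 0.0218. All 3 entered that fit through later lists only, with the lowest rank in both 0 h libraries. These p values therefore add no support to the rule that picked them. Of the 16 Dtx1 regions, 9 and 7 had a peak at 0 h and 13 and 12 after 2 h. Over the whole series, regions with a peak also rose, from 92282 and 84397 at 0 h to 101724 and 96780 after 2 h. No Dtx1 region lay within 1 kb of the start site.

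**Figure D2:**
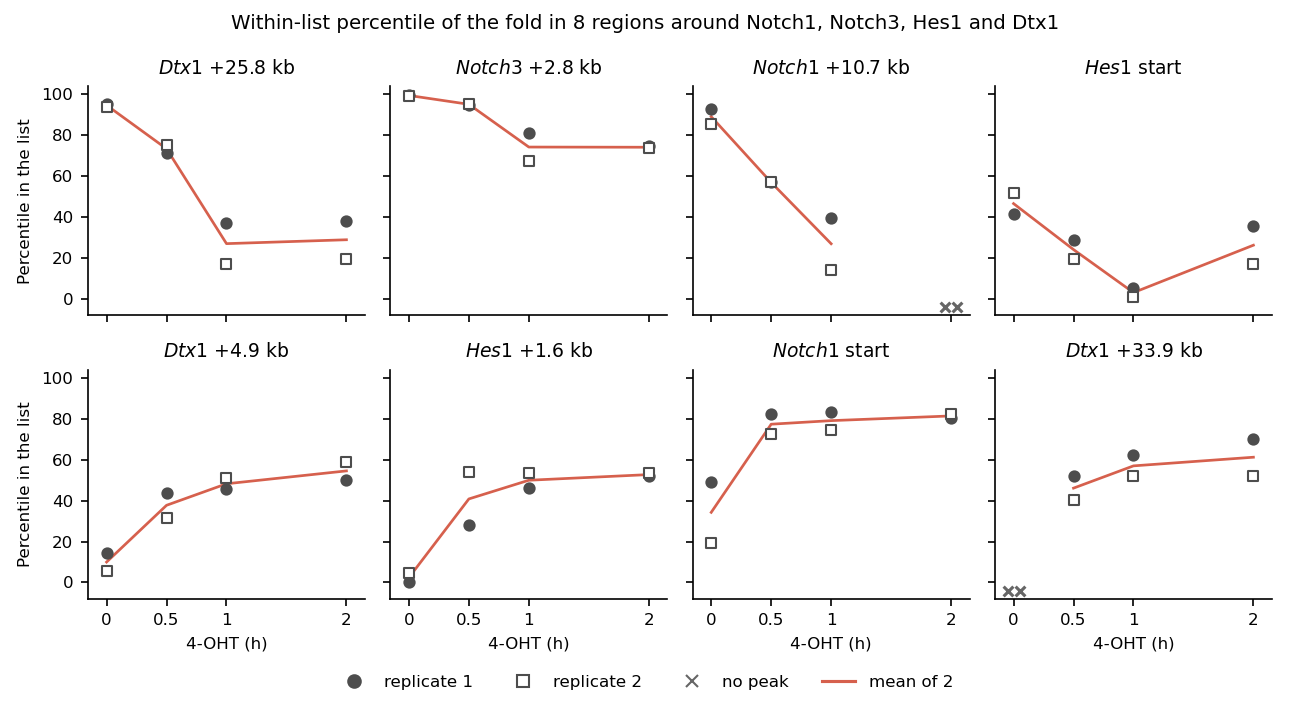
Percentile of the fold within each list (0 to 100) against hours with 4-OHT for 8 regions around Notch1, Notch3, Hes1 and Dtx1. Circles and squares are the 2 replicates, the line is their mean and crosses mark a missing peak. Dtx1 +25.8 kb averaged 94.6 at 0 h and 28.9 after 2 h, while Hes1 +1.6 kb averaged 2.4 and 52.7.

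The other genes are T-lineage targets. Ptcra, which encodes the alpha chain of the pre-T-cell receptor, had no region inside its body or within 1 kb of its start. Its 12 regions lie over neighbours such as Cnpy3, 2310039H08Rik and Rpl7l1 and were not called in the main fit, with shifts at 2 h from -0.35 to 0.66. The Cnpy3 start site had 71 and 53 fragments at 0 h and 67 and 81 after 2 h (adjusted p 0.366). A region at +12 kb, in an intron of Cnpy3, had 46 and 33 fragments at 0 h, 32 and 26 after 30 min, 23 and 17 after 1 h, and at 2 h 16 in 1 library and no peak in the other. It was lower at 2 h in the fit over regions in at least 2 lists (shift -1.56, adjusted p 0.00633).

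Il2ra encodes CD25, a chain of the interleukin-2 receptor that thymocytes and pre-B cells both carry. The region over its start site (chr2:11642671-11642859) was weak, with 6 and 7 fragments at 0 h, 14 and 10 after 30 min, 8 and 12 after 1 h, and 6 and 7 after 2 h. Its shift at 2 h was -0.40 ± 0.37, with an adjusted p of 0.475. An intronic region at +11.2 kb (chr2:11653855-11654096) had 36 and 28 fragments at 0 h and 17 and 14 after 2 h, with a shift of -1.34 ± 0.32 and an adjusted p of 0.0168. A strong intronic region at +21.4 kb had 61 and 60 fragments at 0 h and 86 and 92 after 2 h, with a shift of 0.69 ± 0.28 and an adjusted p of 0.108. Neither passed the rank test, and the fragment scale called the one at +11.2 kb (adjusted p 0.00496). The strongest region at 0 h, at -19.5 kb and upstream of the gene, had 102 and 79 fragments at 0 h and 66 and 63 after 2 h, with a shift of -0.87 ± 0.25 and an adjusted p of 0.0371. An intronic region at +38.2 kb had 11 fragments in each 0 h library and no peak in the 6 later lists, and it was the member lower at 30 min in the fit over regions in at least 2 lists. It entered that fit through the 0 h lists only, and at 11 fragments it lies near the median peak of its list.

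Gata3 and Tcf7 encode transcription factors that Notch induces in early T-cell progenitors. Gata3 had 6 regions. The strongest, at -1.1 kb, had 37 and 26 fragments at 0 h and 45 and 37 after 2 h, and its shift of 0.34 ± 0.32 was within the spread (adjusted p 0.485). The start site itself had a weak region with 11 and 9 fragments at 0 h and 10 and 8 after 2 h. An intronic region at +7.2 kb (chr2:9871152-9871510) had 21 and 21 fragments at 0 h, 13 and 13 after 30 min, 17 and 12 after 1 h, and 12 and 10 after 2 h. All later libraries were below both 0 h libraries, yet its shift of -1.34 ± 0.31 had an adjusted p of 0.0148.

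Tcf7 had 20 regions. Near its start, at -0.3 kb, 3 of 8 lists had a peak, of 6 to 9 fragments. The region at -14.5 kb (chr11:52297459-52297632) had 35 and 22 fragments at 0 h, 36 and 32 after 30 min, 45 and 40 after 1 h, and 46 and 49 after 2 h, with a shift of 0.94 ± 0.27 and an adjusted p of 0.0342. An intronic region at +9.6 kb had 32 and 27 fragments at 0 h, 12 and 12 after 30 min, none called at 1 h, and 11 in 1 library at 2 h. It was lower at 2 h in the fit over regions in at least 2 lists (shift -1.56, adjusted p 0.00725).

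Cd3e encodes a chain of the CD3 complex of the T-cell receptor. Its own start site had no peak in any list. Of its 11 regions, the one at +29.2 kb (chr9:44980354-44980531) spans the start of the neighbouring Cd3g, which encodes another CD3 chain. It had 6 fragments in 1 of the 0 h libraries and no peak in the other, then 9 and 11 after 30 min, 19 and 19 after 1 h, and 26 and 23 after 2 h. The times from 30 min on do not overlap, and its percentile reached 88.5 and 89.0 after 2 h. The fit over regions in at least 2 lists gave a shift of 1.84 after 2 h with an adjusted p of 0.00516. A region over an untranslated exon of Cd3d, at +23.0 kb, had 57 and 51 fragments at 0 h and 34 and 38 after 2 h (shift -0.59 ± 0.30, adjusted p 0.196).

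**Figure D3:**
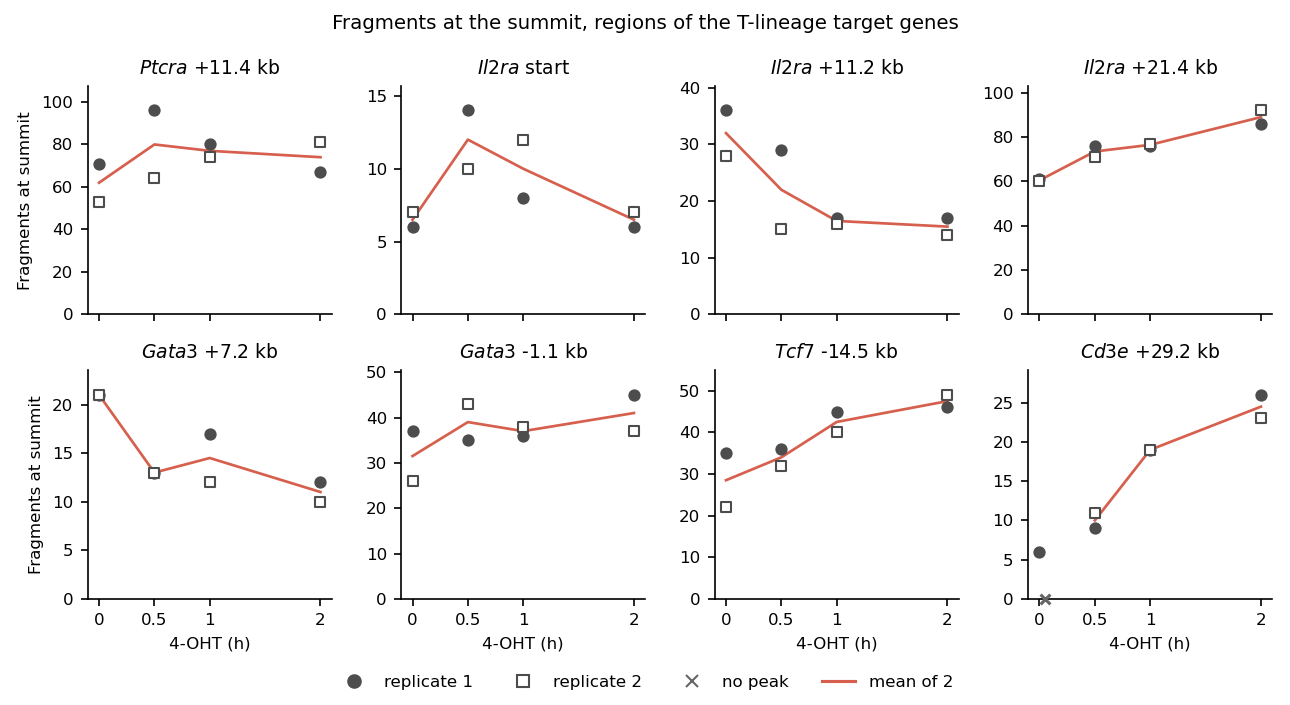
Fragments at the summit against hours with 4-OHT for 8 regions around Ptcra, Il2ra, Gata3, Tcf7 and Cd3e, with 1 scale per panel that starts at 0. Circles and squares are the 2 replicates, the line is their mean and a cross marks a missing peak. Cd3e +29.2 kb, at the Cd3g start, went from 6 fragments in 1 library at 0 h to 26 and 23 after 2 h, and Il2ra +11.2 kb from 36 and 28 to 17 and 14.

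Presence of a peak was compared without a test, because 2 against 2 libraries allow no two-sided exact permutation p below 0.33. A region was lost when both 0 h lists and neither later list had a peak, and gained in the reverse case. At 30 min 8 of 81 member regions were lost (9.88%, against 10.9% of all regions) and 7 of 85 gained (8.24%, against 10.3%). At 1 h 11 of 81 were lost (13.6%, against 14.6%) and 12 of 86 gained (14.0%, against 17%). At 2 h 11 of 81 were lost (13.6%, against 16.6%) and 12 of 80 gained (15%, against 20.5%). Losses at 2 h were 6 of the 17 Notch1 regions in both 0 h lists, 3 of 18 around Il2ra and 1 each around Notch3 and Hes1. Gains were 4 of the 12 Dtx1 regions in both 2 h lists, 2 each around Notch1, Tcf7 and Cd3e, and 1 each around Notch3 and Il2ra. Around Ptcra and Gata3 none was lost or gained at 2 h.

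**Figure D4:**
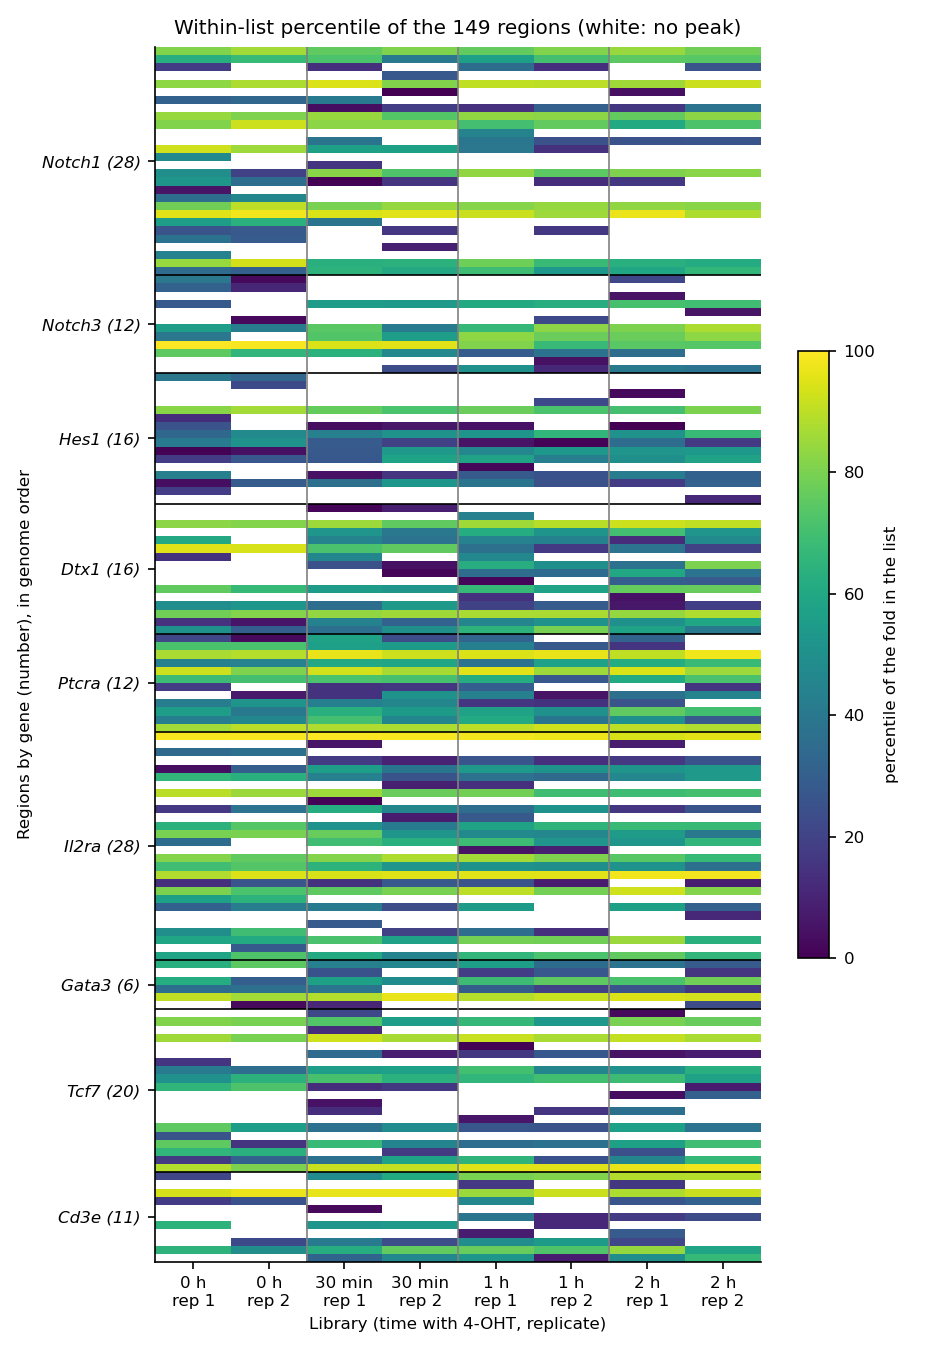
Each row is 1 of the 149 regions, grouped by gene and in genome order, and each column a library. Colour is the percentile of the fold within the list, and white means no peak. White spreads to the right among the 28 Notch1 regions, with a peak in 21 and 17 at 0 h and in 14 and 13 after 2 h, and colour spreads among the 16 Dtx1 regions, with 9 and 7 at 0 h and 13 and 12 after 2 h. The 2 h lists were longer than the 0 h lists, and the counts per gene were not tested.

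Other genes of the pathway had changes of both directions. A list of 32 further Notch pathway genes had 605 regions outside the members, and 162 of them were in all 8 lists. At 2 h 12 of these were lower (7.41%, against 4.71% of all 47875 regions) and 8 higher (4.94%, against 2.28%), with a median shift of 0.03. The difference from all regions was not tested. Rbpj, which encodes the DNA-binding partner of Notch, had 2 of the lower ones. The region inside the gene next to its start (chr5:53466494-53466812) had 30 and 22 fragments at 0 h and 5 and 5 after 2 h, with a shift of -2.75 and an adjusted p of 0.00123. A region near the start of Dll1, a Notch ligand, had 38 and 31 fragments at 0 h, 8 and 8 after 30 min, and 8 and 7 after 2 h (shift -2.41, adjusted p 0.00143). Of the higher ones, a region upstream of Hes5, another repressor of the Hes family, had 8 and 7 fragments at 0 h, 31 and 22 after 30 min, and 32 and 33 after 2 h (shift 2.46, adjusted p 0.00218). A list of 17 further T-lineage genes had 249 regions, and 84 of them were in all 8 lists. At 2 h 3 were lower, at Cd28, Cd247 and Cd4, and 3 were higher, all at Tox. Each is 3.57% of the list, near the shares of all regions, and the median shift was -0.02.

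The start-site regions whose scores over the 8 libraries were most like those of Dtx1 +25.8 kb, among 8944 of protein-coding genes, were those of Gls2, Mib1 and Dock9, with root mean square differences of 0.36, 0.44 and 0.46 in normal scores. For Hes1 +1.6 kb they were those of Tmem268, Zdhhc8 and Ccdc114, with differences of 0.52, 0.53 and 0.54.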

How the data were processed

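ATAC-seq peak lists of 8 libraries were used, 2 replicates at each of 4 times. Per the labels and methods, the authors aligned reads with BWA 0.7.17 in an nf-core workflow, shifted ends for the transposase offset with deepTools 2.3.5, kept fragments of up to 120 bp and called peaks per library with MACS2 2.1.2, with no control. Processing notes give GRCm38 (mm10), which was used here. The deposited lists hold a ratio (the fold at the summit), 2 columns of −log10 values (p-value and q-value), a display score that was not used, and the summit, none scaled between libraries. Depth was read from them: fold and p-value together fix the fragments at a summit and the background, and whole fragments within a relative error of 0.001 in the −log10 p fitted 100.0% of peaks in each list. The background was 0.26 to 0.405 fragments per base.

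Peaks overlapping by any amount were merged. Regions found in all 8 lists were ranked by fold within a list, and normal scores of the ranks went into limma 3.58.1 (R 4.3.3, 4 time groups, Benjamini-Hochberg adjustment over 47875 regions, threshold 0.01). Ranks are relative, so a region rises only against others. Alternatives were other ranks, fragments over background, regions in at least 2 lists, a mean trend, stronger peaks, a 10 kb window and leaving out libraries. Named regions were those within 1 kb of a start site, the largest shift per gene at 2 h, those called, and those lost or gained at 2 h with over 20 fragments. Further regions (Notch1 -26.3, -9.7, -3.9 and +20.1 kb, Notch3 +2.4 and +23.5 kb, Hes1 -1.0 kb, Ptcra +11.4 and +12 kb, Il2ra -19.5, -5.5, +21.4 and +38.2 kb, Gata3 -1.1 kb, Tcf7 +9.6 kb and Cd3e +29.2 kb) were chosen after their values were seen. Members and lists were chosen with earlier results of these data known. Replicate numbers did not pair the libraries: the replicate differences of any 2 times correlated at 0.0172 to 0.0403 over regions.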

Additional observations from a re-analysis of the deposited data

How the results depend on the processing

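The shifts of 12 regions were refitted under the alternatives (the Notch1, Hes1 and Il2ra starts, Notch3 +2.8 kb, Hes1 +1.6 kb, Dtx1 +4.9 and +25.8 kb, Ptcra -18.9 kb, Il2ra +11.2 kb, Gata3 +7.2 kb, Tcf7 -14.5 kb and Cd3e +23.0 kb), and 0 changed sign. The calls rest on few libraries: without each library in turn, the member count ranged from 0 to 3 lower and 0 to 1 higher at 1 h, from 0 to 2 lower and 0 to 1 higher at 2 h, and was 0 for both at 30 min. Without replicate 2 of 0 h none was called at any time, and without replicate 1 of 0 h 1 was lower at 2 h. Without either 1 h library none was called at 1 h and none was higher at 2 h, without replicate 1 of 2 h 1 was lower and none higher at 2 h, and without replicate 2 of 2 h none was called at 2 h. Dtx1 +25.8 kb stayed called at 2 h in 6 of 8 such fits (adjusted p 0.00205 to 0.0115), Notch3 +2.8 kb in 4 (0.00249 to 0.0125), Hes1 +1.6 kb in 2 (0.0043 to 0.0543) and Dtx1 +4.9 kb in 0 (0.0131 to 0.0994). At 1 h the Hes1 start stayed called in 4 (0.00617 to 0.0308). Lost regions ranged from 8 to 15, 11 to 18 and 11 to 20 at the 3 times and gained ones from 7 to 18, 12 to 23 and 12 to 21. These fits have fewer libraries and less power.

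At an adjusted p under 0.05, 1 was lower at 30 min, 8 lower and 3 higher at 1 h, and 10 lower and 4 higher at 2 h. The shares of all regions under this and the other alternatives were not counted, except for fragments over background and regions in at least 2 lists. The counts show how calls moved with the setting and say nothing particular of the group. Fragments over background gave 2 lower at 30 min, 9 lower and 2 higher at 1 h, and 8 lower at 2 h. Regions in at least 2 lists gave 1 lower at 30 min, 9 lower and 1 higher at 1 h, and 10 lower at 2 h. Peaks of −log10 q of at least 5, with 47 member regions tested, gave 1 lower at 1 h and 4 lower and 0 higher at 2 h. Ranks by p-value gave 2 higher at 1 h, and ranks among all peaks gave 1. A mean trend gave 1 higher at 1 h and 4 lower at 2 h. The replicate block, although numbers did not pair libraries, gave 1 higher at 1 h and 1 higher at 2 h. A 10 kb window left 3, 6 and 7 lost regions at 30 min, 1 h and 2 h. The cause of these changes was not tested. Depth limits weak regions most: with a median of 11 to 14 fragments at the summit, a lost peak may be 1 that fell just under the threshold.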
